A study of Mus musculus with 4 samples.

Results

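The cells described here are the Foxp3-positive regulatory T cells (Tregs) of 4T1 tumours. A droplet barcode counted as a Treg when it held at least 300 detected genes and at most 15% mitochondrial transcripts, at least 1 transcript of Foxp3, at least 1 of the T cell receptor subunit genes Cd3d and Cd3g in sum, and none of Cd8a or Cd8b1. Of 33064 deposited barcodes, 32133 passed the first pair of limits, and 160 of 32133 were Tregs (0.498%). Because the members were chosen by measured Foxp3, Cd3d, Cd3g, Cd8a and Cd8b1 transcripts, the levels of these genes are given as a description only.

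The tumours came from female BALB/c mice aged 6 to 8 weeks, into whose right flank 1000000 cells of the 4T1 mammary carcinoma line had been implanted. All groups were injected intravenously on day 7 and then had 3 sessions of near-infrared light, on days 8, 9 and 10, each of 5 min at 980 nm and 1.0 W cm-2. Tumours were taken on day 13, and by the protocol leucocytes were sorted by the surface protein CD45. The cells that passed the filter still included 1745 with at least 5 Col1a1 transcripts and none of Ptprc (the CD45 gene), Cd3d, Cd3e or Cd3g. Shares of all cells are thus not shares of leucocytes. The labels place 2 samples in the group injected with PBS and 1 in the group injected with TIOs (TIOs+NIR), macrophages frozen in liquid nitrogen that carry upconverting nanoparticles coated with mesoporous silica and loaded with azobenzene, the photosensitiser Ce6 and the GPX4 inhibitor RSL3. For 1 further sample the title and the protocol name different treatments, and it was left without a group. The 4 libraries, made with a 3′ kit of 10x Genomics, are marked by a number at the end of each barcode. No label ties that number to a sample, so libraries 1 to 4 are shown one by one as libraries of unknown treatment, PBS and TIOs+NIR were not compared, and the pooled cells count as 1 sample with no test and no p-value.

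Tregs are CD4 T cells that restrain other lymphocytes. Their identity rests on Foxp3, a forkhead transcription factor encoded on the X chromosome, working with other factors such as Helios (Ikzf2) and Eos (Ikzf4). They bind interleukin 2 through the high-affinity receptor chain CD25 (Il2ra) while making little of the cytokine themselves, and they take the co-stimulatory ligands CD80 and CD86 from antigen-presenting cells through Ctla4. In tumours and other tissues, Tregs often carry an activated form of this programme, with receptors of the TNF family and, in some settings, the growth factor amphiregulin (Areg) that acts in tissue repair.

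The matrix held 355765099 unique molecular identifiers (UMIs), each standing for 1 captured transcript molecule, with 69255999 to 108646352 UMIs in a library. Tregs contributed 1277802 of them. The depth of the Tregs differed between libraries, with a median of 3130 UMIs per cell in library 1 (34 Tregs), 11750.5 in library 2 (24 Tregs), 3931 in library 3 (84 Tregs) and 3762.5 in library 4 (18 Tregs). Library 3 thus held 52.5% of all Tregs, and those of library 2 were the deepest. Barcode sequences were shared between libraries in 101 of 32963 cases, which touched 1 Treg, and no pair of barcodes with the same sequence held a Treg in both libraries.

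Transcripts of other cell types were present in the Tregs and differed between libraries. The 6 genes of the tumour or epithelial list summed to 6246 counts per 1000000 UMIs (CPM) in the Tregs of library 1, with Krt18 as the most abundant at 2112 CPM, against 53.2, 14.2 and 18.7 CPM in libraries 2, 3 and 4. In library 1, 70.5% of these UMIs lay in 1 cell. The fibroblast list summed to 113, 5219, 1635 and 1381 CPM in libraries 1 to 4, led by Col1a1 in library 1 and by Col3a1 in the others, and 81.9% of its UMIs in library 2 lay in 1 cell. The tumour list was thus high in library 1 only and the fibroblast list low in it, and the Foxp3-negative CD4 T cells defined below shared this order, with 2792, 85.9, 10.0 and 6.24 CPM of the former and 117, 7924, 3648 and 3279 CPM of the latter. The macrophage and monocyte list summed to 2107, 195, 597 and 4385 CPM, with Apoe or Lyz2 in front, and the neutrophil list to 2683, 276, 3077 and 411 CPM, led by S100a9. A single cell held 86.4% of the macrophage UMIs in library 4 and 87.1% of the neutrophil UMIs in library 1. Of the NK, B cell and mast cell lists, Gzma, Cd79b, Ms4a1 and Mcpt4 were above 0 in the Tregs and the other genes at 0. Of the CD8 list, Ccl5 was present and Gzmk at 0, while Cd8a and Cd8b1 were at 0 by the rule. No doublet caller was run. UMIs of the other cell types exceeded 1% of a cell's total in 7 of 160 Tregs. These cells weighed unequally in the sums, since the 3 of library 1 held 38.5% of all Treg UMIs of that library, against 7.71%, 2.60% and 17.6% for those of libraries 2, 3 and 4.

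Foxp3 (chrX:7573644-7595245, GRCm38, plus strand) was found at low counts. The Tregs held 449 of the 544 Foxp3 UMIs in all cells that passed the filter (82.5%), with a median of 2 UMIs and a maximum of 9 UMIs per cell. The level was 307 CPM in library 1, 208 CPM in library 2, 455 CPM in library 3 and 420 CPM in library 4. Just inside the limit, 49 Tregs carried a single Foxp3 UMI. In these, 75.5% held a Ctla4 UMI and 85.7% an Ikzf2 UMI, compared with 91.2% and 97.1% in the 68 Tregs with 3 or more Foxp3 UMIs. Il2ra was detected in 61.2% of the former and 86.8% of the latter.

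Just outside the rule lay 48 cells with Foxp3 but no Cd3d or Cd3g, and 10 cells with Foxp3, Cd3d or Cd3g, and a Cd8a or Cd8b1 UMI. The former were deep, at a median of 22578 UMIs, and held little else of a Treg, with Ctla4 in 10.4%, Il2ra in 14.6% and Trac in 10.4% of them, while Col1a1 was found in 64.6%. Of these 48 cells, 28 also lacked Cd3e. The latter 10 resembled the members in their markers, with Ctla4, Il2ra and Ikzf2 in 80% each. At the other limits, the Treg with the fewest genes had 425, and the highest mitochondrial share was 8.97%. A Cd4 UMI was found in 77 of 160 Tregs. The 83 Tregs without one held Ctla4 in 84.3% and Ikzf2 in 94% of cells, against 87% and 89.6% in those with one.

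**Figure D1:**
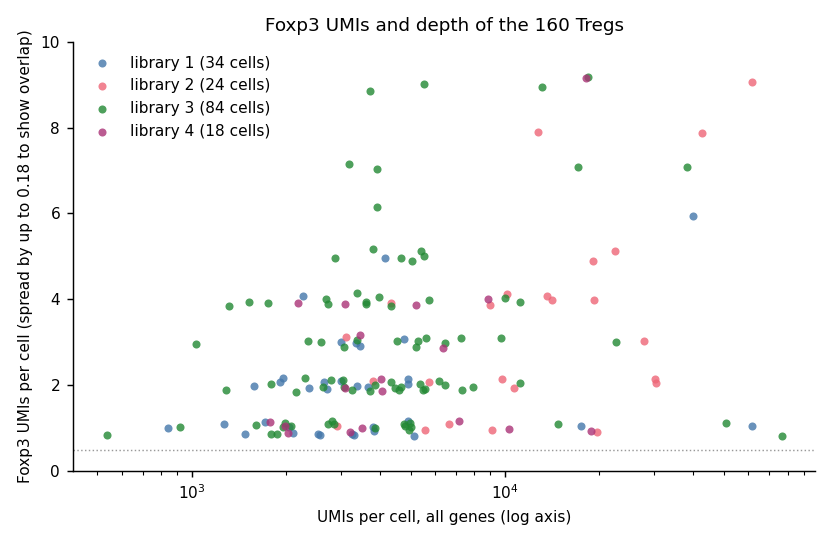
Foxp3 UMIs per cell (vertical axis) against all UMIs of that cell (horizontal log axis) for the 160 Tregs, coloured by library. Cells with a single Foxp3 UMI, of which there were 49, occur over nearly the whole range of depth, and the cells of library 2 lie mostly to the right, at a median of 11750.5 UMIs.

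Because Foxp3 and its partners define the class through transcription, the sequences before the start sites of Foxp3, of its markers Il2ra and Ctla4 and of Gzmb, an effector gene found higher below, are shown as context. They are the 250 bases before the annotated start, from RefSeq on GRCm38.p6, 5′ to 3′ on the strand of the gene. The table holds 2 starts for Foxp3, of which the first spans chrX:7579426-7579675 and the second chrX:7580233-7580482. The stretch of Il2ra is chr2:11642542-11642791, that of Ctla4 chr1:60908775-60909024 and that of Gzmb chr14:56262335-56262584 on the minus strand. Capitals mark matches, on either strand, to GTAAACA (the forkhead motif), TTCNNNGAA (bound by STAT factors), TGANTCA (AP-1) and GGAAA (the core bound by NFAT), where N is any base.
Foxp3, first start: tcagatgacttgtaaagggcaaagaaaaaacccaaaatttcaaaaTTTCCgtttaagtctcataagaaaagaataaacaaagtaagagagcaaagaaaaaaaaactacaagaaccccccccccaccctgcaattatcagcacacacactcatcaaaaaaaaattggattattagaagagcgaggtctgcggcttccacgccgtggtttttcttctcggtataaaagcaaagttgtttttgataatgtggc
Foxp3, second start: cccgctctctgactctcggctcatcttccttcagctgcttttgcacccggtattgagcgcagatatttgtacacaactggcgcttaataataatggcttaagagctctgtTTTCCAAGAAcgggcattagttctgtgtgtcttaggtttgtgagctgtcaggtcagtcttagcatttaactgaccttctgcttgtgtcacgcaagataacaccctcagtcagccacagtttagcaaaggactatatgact
Il2ra: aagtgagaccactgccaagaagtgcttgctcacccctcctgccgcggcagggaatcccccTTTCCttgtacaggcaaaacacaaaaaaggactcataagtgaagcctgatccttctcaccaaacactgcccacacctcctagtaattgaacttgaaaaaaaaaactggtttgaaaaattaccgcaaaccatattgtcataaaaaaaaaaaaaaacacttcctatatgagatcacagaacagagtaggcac
Ctla4: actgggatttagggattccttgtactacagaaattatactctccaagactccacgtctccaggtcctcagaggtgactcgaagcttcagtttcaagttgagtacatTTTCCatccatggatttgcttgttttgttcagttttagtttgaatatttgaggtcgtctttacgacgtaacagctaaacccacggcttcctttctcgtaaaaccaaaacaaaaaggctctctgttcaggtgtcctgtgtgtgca
Gzmb: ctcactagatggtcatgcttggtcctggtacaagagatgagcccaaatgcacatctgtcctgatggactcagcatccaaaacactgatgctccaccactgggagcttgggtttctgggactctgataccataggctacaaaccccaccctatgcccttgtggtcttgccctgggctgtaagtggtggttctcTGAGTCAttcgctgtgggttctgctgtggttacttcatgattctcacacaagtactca
The only STAT match lay at the second Foxp3 start, 139 to 131 bases before it, and overlapped an NFAT core. Gzmb held an AP-1 match 58 to 52 bases before its start. Of 32851 mouse promoters of this length, 7.02% held the STAT letters, 6.75% those of AP-1, 3.17% those of the forkhead motif and 55.6% the NFAT core, so that the last is found in most promoters. Of Foxp3 and the 25 genes named in the comparison with other CD4 T cells, 19 had a promoter in the table. Ikzf2, Klrg1, Igkc, Ighm, Itgae, Ikzf4 and Cd40lg had none. A match is a description of letters, and no binding was measured.

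Markers that the rule did not use were then set beside the label. Il2ra, the gene of CD25, (chr2:11642807-11693193) was found at 128 CPM in library 1, 1042 CPM in library 2, 1061 CPM in library 3 and 765 CPM in library 4 (exact 95% Poisson intervals 84.1 to 186, 944 to 1148, 978 to 1150 and 609 to 950). In CD4 T cells without Foxp3, which were cells with a Cd4 UMI, Cd3d or Cd3g and no Foxp3, Cd8a or Cd8b1, the Il2ra level was 53.6, 187, 116 and 120 CPM. Each library's Tregs were thus above its other CD4 T cells, but those of library 1 lay far below the Tregs of the other 3 libraries.

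Ctla4 (chr1:60887000-60915832) reached 529, 892, 845 and 802 CPM in the Tregs of libraries 1 to 4, against 194, 204, 148 and 115 CPM in the Foxp3-negative CD4 T cells. Ikzf2 (chr1:69531214-69687245, minus strand) reached 543, 783, 1139 and 1176 CPM, against 134, 25.6, 32.4 and 22.9 CPM. For both genes the lowest library of the Tregs lay above the highest library of the other class. The CD45 gene Ptprc was detected in 94.4% of the Tregs.

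By cell, 85.6% of Tregs held a Ctla4 UMI (exact 95% binomial interval 79.2 to 90.7), 76.9% an Il2ra UMI (69.6 to 83.2) and 91.9% an Ikzf2 UMI (86.5 to 95.6). As a measure of free RNA, neutrophils, which should lack these genes, held them in 0.26%, 0.672% and 1.15% of cells at a median of 1943 UMIs, against 3989.5 UMIs in the Tregs. With each cell thinned to 1000 UMIs, the shares in Tregs were 57.3%, 45.2% and 68.8%, and those in Foxp3-negative CD4 T cells 15.7%, 10% and 3.6%. All of Il2ra, Ctla4 and Ikzf2 were found together in 103 of 160 Tregs (64.4%) and in 18 of 391 Foxp3-negative CD4 T cells (4.6%). Only 2 Tregs had none of the 3. Intervals and shares cover counting error only, and not differences between mice.

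Tregs made up 160 of 551 CD4 T cells, or 29% (exact 95% binomial interval 25.3 to 33), when Tregs and Foxp3-negative CD4 T cells were added together. The share was 47.9% in library 1 (34 Tregs beside 37 other CD4 T cells), 33.8% in library 2 (24 beside 47), 30% in library 3 (84 beside 196) and 14% in library 4 (18 beside 111). Library 4 was the lowest, and its interval (8.48 to 21.2) lay below those of the other 3 libraries. Among these, the interval of library 2 overlapped those of libraries 1 and 3, which did not overlap each other. After thinning to 1000 UMIs, which left 60 Tregs and 113 others, the shares were 60.9%, 28.6%, 36.8% and 17.1%, and library 4 overlapped libraries 2 and 3. The denominator asks for a Cd4 UMI of the other cells but not of the Tregs. When it was asked of both, the share was 16.5%, and among all Cd3-positive cells without Cd8a or Cd8b1, with or without Cd4, it was 8.29%. By library the latter share was 6.83%, 9.6%, 11.4% and 4.04%, so that library 3 and not library 1 was the highest. The interval of library 4 (2.41 to 6.30) then overlapped those of library 1 (4.77 to 9.41) and library 2 (6.25 to 13.9). The order of the libraries thus depends on the denominator. As a share of all cells, which included cells without Ptprc, Tregs ranged from 0.202% in library 4 to 1.24% in library 3. A share of captured cells depends on the sort, and cell numbers per tumour were not used here.

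**Figure D2:**
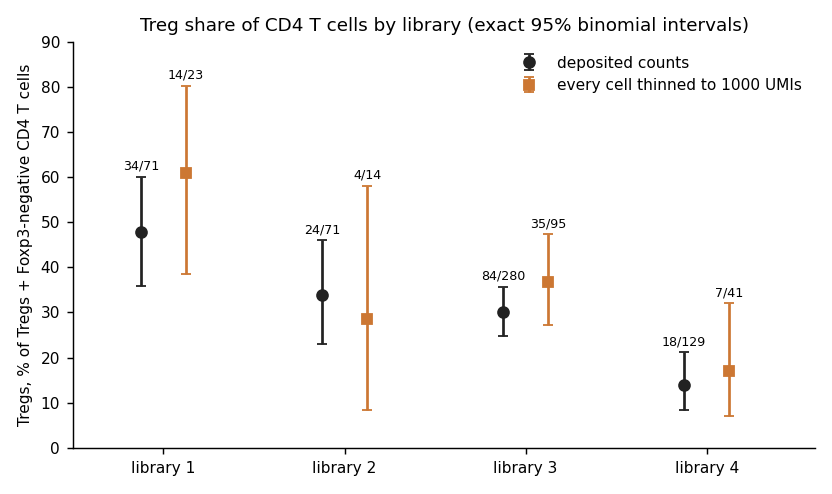
Tregs as a percentage of all CD4 T cells (Tregs plus Foxp3-negative CD4 T cells) in each library, for the counts as deposited (circles) and with each cell thinned to 1000 UMIs (squares); bars are exact 95% binomial intervals and the fractions above them give the cells. With this denominator, library 1 is the highest at 47.9% and library 4 the lowest at 14%. Among all Cd3-positive cells without Cd8a or Cd8b1 (not drawn), library 3 is the highest at 11.4%.

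The main comparison asked what separates Tregs from the other CD4 T cells of the same tumours. UMIs were summed per class and library, and the log2 ratio of (CPM + 10) in Tregs to (CPM + 10) in Foxp3-negative CD4 T cells was averaged over libraries 1, 2 and 3, which had at least 20 cells of each class (142 Tregs and 280 others). A gene was called when this mean was at least 1 in size, that is 2-fold, with the same sign in each of the 3 libraries. Of 9986 genes with at least 20 UMIs, 112 were called higher in Tregs (1.12%) and 84 lower (0.841%). The median log2 ratio of all genes tested was 0.01. Scaling by the median of ratios in place of total UMIs gave 86 higher and 100 lower, which turns the split from 57.1% to 46.2% higher.

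Of the transcription factor genes, the Helios gene Ikzf2 had the highest ratio, with a mean log2 ratio of 3.73 (1.94, 4.48 and 4.76 in libraries 1, 2 and 3). It was found in 91.5% of the 142 Tregs and 14.6% of the 280 other cells. Ikzf4, the gene of Eos, which acts with Foxp3 in silencing genes, had a mean log2 ratio of 1.97, from 56.7, 81.1 and 190 CPM in the Tregs of libraries 1 to 3 against 16.7, 9.04 and 29.3 CPM. Hopx, a homeodomain protein without DNA binding of its own, had a mean log2 ratio of 2. Its level in Tregs was 56.7, 35.5, 85 and 131 CPM in libraries 1 to 4, and no library of the other class exceeded 7.54 CPM. Also called higher among the 29 tested Treg transcription factors were Ikzf3 (log2 ratio 1.69) and Prdm1 (1.46), the gene of Blimp-1. None was called lower, and the other 24, which include Gata3, Batf, Irf4, Maf, Stat5a, Stat5b and Foxo1, were not called. Maf came close at 0.98. After thinning to 1000 UMIs, 23 of these genes were tested, of which Ikzf2 and Ikzf3 were higher and Gata3 and Satb1 lower, while Ikzf4, Hopx and Prdm1 were not called. The median of this list was 0.30, and 0.15 after thinning. Thinning also raised the number of calls among all genes, both higher and lower, as given at the end. The counts of called genes after thinning, here and for the lists below, were not set against the share called over all genes.

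**Figure D3:**
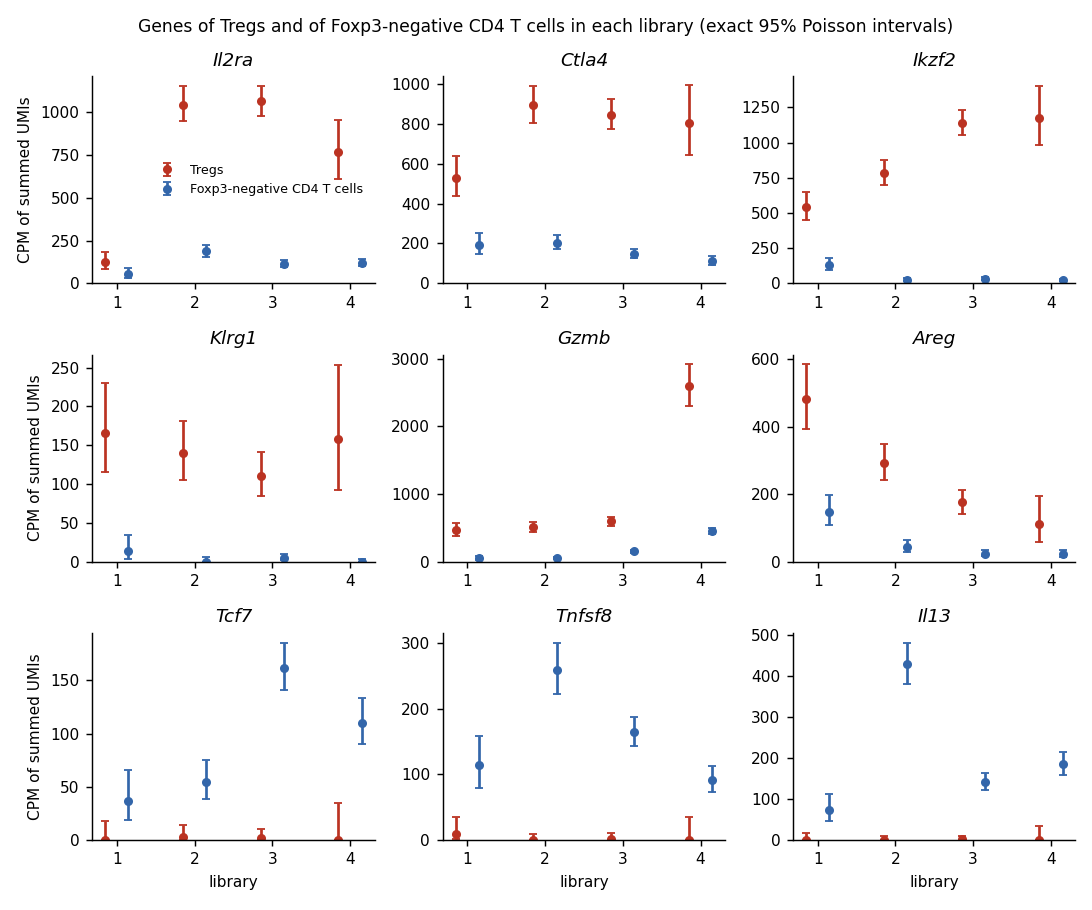
CPM of summed UMIs of 9 genes in Tregs (red) and Foxp3-negative CD4 T cells (blue) of each library, with exact 95% Poisson intervals. Ikzf2, Ctla4, Klrg1 and Areg are higher in the Tregs of all 4 libraries, Tcf7, Tnfsf8 and Il13 are near 0 in them, and Il2ra is at 128 CPM in the Tregs of library 1 against 765 CPM or more in the others.

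Of 17 genes of interleukin 2 reception and signalling tested, 2 were called higher and 2 lower. Il2ra had a mean log2 ratio of 2.21 (1.11, 2.42 and 3.09), and Il2rb, the signalling chain shared with the interleukin 15 receptor, one of 1.06. The cytokine gene Il2 was called lower at -1.11, on 1 UMI in the 142 Tregs and 48 UMIs in the other cells. Bcl2, a survival gene, was also lower, at -1.96. Its level was 18.9, 5.07, 7.09 and 28 CPM in the Tregs of libraries 1 to 4 and 197, 15.1, 74.9 and 44.7 CPM in the other CD4 T cells. The other 13 genes, among them Il2rg, Il7r, Jak1, Jak3, Cish and Socs1, were not called. After thinning to 1000 UMIs, Il2ra, Il2rb and Socs2 were higher and Bcl2 lower of 15 genes tested, and Il2 was no longer called.

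Of 17 suppressive surface and secreted molecules tested, 7 were called higher and 1 lower. Gzmb, the cytotoxic protease granzyme B, stood at 468, 510, 594 and 2594 CPM in the Tregs of libraries 1 to 4 and at 53.6, 46.7, 151 and 457 CPM in the other CD4 T cells. Library 4 was the highest in both classes, and Tregs were above the others in each library (mean log2 ratio over libraries 1 to 3 of 2.67). It was found in 63.4% of the 142 Tregs against 18.6% of the 280 other cells. Areg had 482, 292, 175 and 112 CPM in Tregs against 147, 43.7, 23.9 and 21.9 CPM (log2 ratio 2.19). Neutrophils held Areg too, at 149, 109, 57.6 and 24.9 CPM, and the order of the libraries was the same in all 3 classes. The part of free RNA in its level was not tested. Itgb8, whose integrin activates latent TGF-β, was found in 38 of the 142 Tregs and 2 of the 280 other cells (71 against 3 UMIs, log2 ratios 0.53, 2.66 and 3.11 in libraries 1 to 3), and its share was lowest in library 1, with 3 of 34 Tregs.

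The other genes of this list called higher were Ctla4 (log2 ratio 1.97), Itgae, which encodes the E-cadherin-binding integrin CD103 (1.99), Izumo1r, the folate receptor 4 of Tregs (1.39), and Lrrc32, the surface anchor of latent TGF-β known as GARP (1.21). Nrp1, a co-receptor often used as a marker of thymus-derived Tregs, was lower at -1.22, with 4.72, 27.9 and 49.6 CPM in the Tregs of libraries 1 to 3 and 46.9, 51.2 and 111 CPM in the other cells. Library 4 went the other way, with 112 CPM in 3 of its 18 Tregs against 84.3 CPM. The suppressive cytokines were not called. Il10 was detected in 15 of 160 Tregs at 16.4 CPM against 14.6 CPM in the other CD4 T cells, Ebi3 stood at 23.5 against 17.7 CPM, and Tgfb1 at 213 against 163 CPM. Of the 11 genes of the list tested after thinning to 1000 UMIs, Ctla4, Itgav, Gzmb, Areg, Izumo1r and Itgae were higher and Nrp1 lower, and Lrrc32 and Itgb8 were not called (list median 1.82, against 0.37 before thinning).

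**Figure D4:**
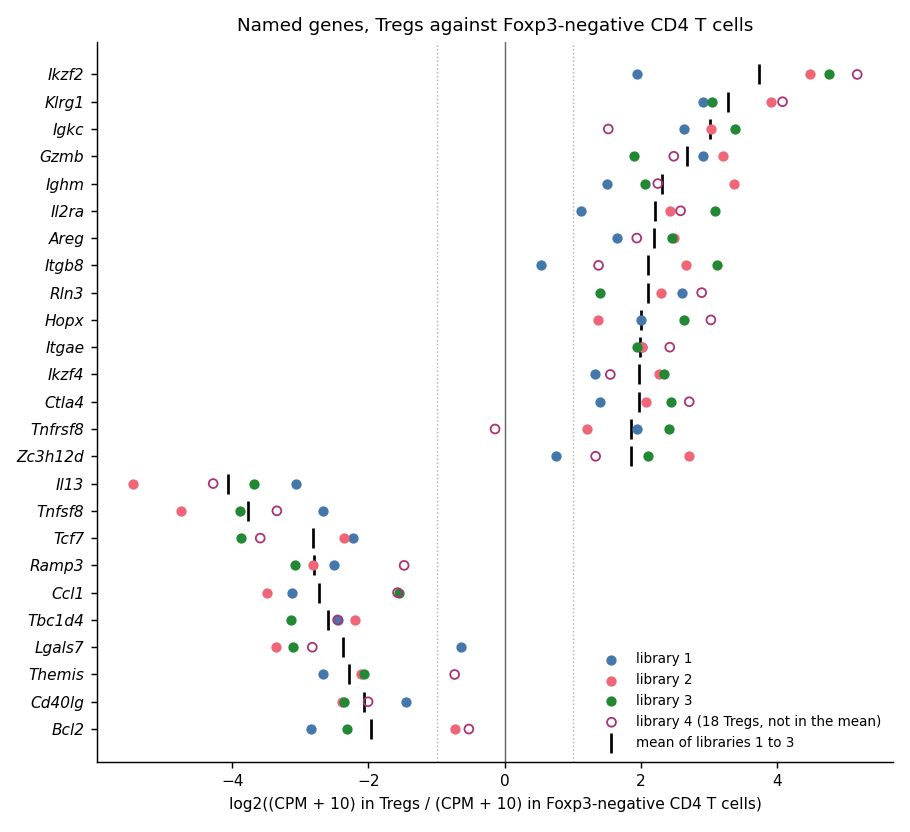
Log2 ratio of (CPM + 10) in Tregs to (CPM + 10) in Foxp3-negative CD4 T cells for the 15 highest and 10 lowest named genes. Filled points are libraries 1 to 3, the black bar is their mean, and the open point is library 4, which held 18 Tregs and stayed out of the mean; Tnfrsf8 is the gene at which library 4 falls on the other side of 0.

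Of 13 tested co-stimulatory genes of the TNF and CD28 families, 5 were called higher, 1 lower and 7 neither, with a list median of 0.62. Tnfrsf9 (4-1BB) stood at 562, 608, 1205 and 849 CPM in the Tregs of libraries 1 to 4 and 224, 190, 232 and 233 CPM in the others (log2 ratio 1.75). Tnfrsf4 (OX40) was at 827, 692, 806 and 802 CPM against 348, 345, 361 and 261 CPM, one of the most even differences between libraries (1.22, 0.98 and 1.14). Cd27 (1.69), Tnfrsf1b, the TNF receptor 2 gene (1.29), and Tnfrsf8, the CD30 gene (1.85), were also higher. Tnfrsf8 was sparse, in 29 of the 142 Tregs and at 0 in the 18 Tregs of library 4, where a count of 0 allows up to 28 CPM. Tnfrsf18 (GITR), often taken as a Treg marker, was not called, at 472, 451, 648 and 914 CPM against 325, 315, 400 and 390 CPM (log2 ratio 0.57). Icos was not called either (0.73).

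Tnfsf8, the ligand of the CD30 receptor, was called lower in Tregs. The 142 Tregs held 3 UMIs of it and the 280 other CD4 T cells 419 UMIs, a 72.4-fold lower level (exact 95% interval 24.6 to 353, counting error only). Cd40lg, through which helper T cells license antigen-presenting cells, had 2 UMIs against 102 (26.4-fold lower, 7.14 to 221). Both genes were lower in the Tregs of all 4 libraries, but Cd40lg lost its call after thinning to 1000 UMIs.

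Il13, a cytokine gene of type 2 helper T cells, was called lower in Tregs. It stood at 73.6, 428, 141 and 184 CPM in the Foxp3-negative CD4 T cells of libraries 1 to 4, while the Tregs of these libraries held 1 UMI in all, in library 3. In libraries 1 to 3 the level in Tregs was 253-fold lower (45.2 to 10015). The Il13 UMIs lay in 30 of 280 cells, with 133 in a single cell. When cells with UMIs of 2 or more genes of another cell type's list were left out, only library 3 remained. The Il13 log2 ratio there was 0.53, which rests on at most 1 UMI in the Tregs. Il4 and Il5 were at 0 in every Treg but missed the call, because library 1 had none in either class. Csf2 (log2 ratio -1.57) and Tnfsf11, the RANKL gene (-1.88), were called lower as well. In all, 6 of 16 tested helper effector genes were lower and none higher, and the list median was -1.24, or -1.34 with the 3 genes at 0 in one class set to their bound of 3 UMIs over the group. After thinning to 1000 UMIs, 3 of 7 genes tested were lower (Il13, Tnfsf8 and Tnfsf11), and the median was -0.48. Ifng, Tnf and Il17a were not called, and Il17a in Tregs was 35 UMIs in 2 cells of library 3 and 5 UMIs in 1 cell of library 2. Ccl1, a chemokine that binds Ccr8, was not found in any of the 160 Tregs and was at least 20-fold lower than in the other CD4 T cells of libraries 1 to 3, against a floor of 3 UMIs over the group. It was found in only 17 of the 280 other cells, 1 of which held 51 of its 116 UMIs, and without that cell the bound was 11.3-fold. Its call was lost after thinning to 1000 UMIs.

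Tcf7, the gene of TCF-1, a factor of naive and memory T cells, was nearly absent from Tregs. It was seen as 1 UMI in library 2 and 1 UMI in library 3, against 36.8, 54.3 and 162 CPM in the other cells of libraries 1 to 3 (66.6-fold lower, 18.3 to 553). No Treg of library 4 held it either, at 110 CPM in the others. Of the same list of naive and central memory genes, Ccr7, Lef1, Klf2, S1pr1 and Il7r were not called. Themis, a T cell receptor signalling adaptor, was lower (-2.28), as was Tbc1d4, a Rab GTPase regulator (-2.60), found in 8 of 142 Tregs and 120 of 280 other cells. Ramp3, which modifies the ligand choice of calcitonin family receptors, was at 0, 15.2, 37.2 and 37.3 CPM in the Tregs of libraries 1 to 4 and 46.9, 167, 391 and 122 CPM in the others (log2 ratio -2.80). Lgals7, a galectin of keratinocytes, was lower at -2.37, and its difference was smallest in library 1 (-0.64). Its call was lost after thinning to 1000 UMIs.

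Genes known from tissue Tregs included the second highest ratio among the named genes. Klrg1, an inhibitory receptor of differentiated T cells that binds cadherins, stood at 165, 139, 110 and 159 CPM in Tregs and at 13.4, 0, 4.63 and 0 CPM in the other CD4 T cells (log2 ratio 3.28), and was found in 59 of 142 Tregs against 7 of 280 other cells. It was not called without cells with UMIs from 2 or more genes of another cell type's list, which left library 3 alone with 30 Tregs. Of 18 tissue Treg genes tested, Areg, Klrg1, Nfil3, Tnfrsf9 and Itgae were called higher, none lower, and the median was 0.63. After thinning, which also raised the calls among all genes, 7 of 16 were higher and 2 lower, with a median of 1.12. Il1rl1, the interleukin 33 receptor gene, was not called, at 66.1, 147, 340 and 196 CPM against 36.8, 152, 224 and 86.4 CPM. Rora (0.53) and Batf (0.68) were not called. Penk missed the call at a mean of 1.52, because library 1 held 118 CPM in Tregs and 127 CPM in the others.

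Among the chemokine and homing receptors tested, Ccr3 (log2 ratio 1.58) was higher and Cxcr6 (-1.38) and Itgb1 (-1.37) were lower. Cxcr6 was at 37.8, 22.8, 53.2 and 46.7 CPM in Tregs and 40.2, 87.4, 345 and 196 CPM in the others, so that library 1 showed nearly no difference. Ccr8, a receptor by which tumour Tregs of many models are known, was found as single UMIs in 11 of 160 Tregs, or 8.61 CPM against 3.11 CPM in the other class. Of 12 checkpoint genes, Ctla4 and Tox (1.24) were higher. Pdcd1 missed the call, at 28.3, 33.0, 151 and 18.7 CPM in the Tregs of libraries 1 to 4, at a mean log2 ratio just under 1. Its ratios in libraries 1 to 3 were 0.52, 0.10 and 2.38, so that this mean came mostly from library 3. Tigit, at 0 to 5.31 CPM in Tregs, had too few UMIs to be tested, as had Ccr8.

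**Figure D5:**
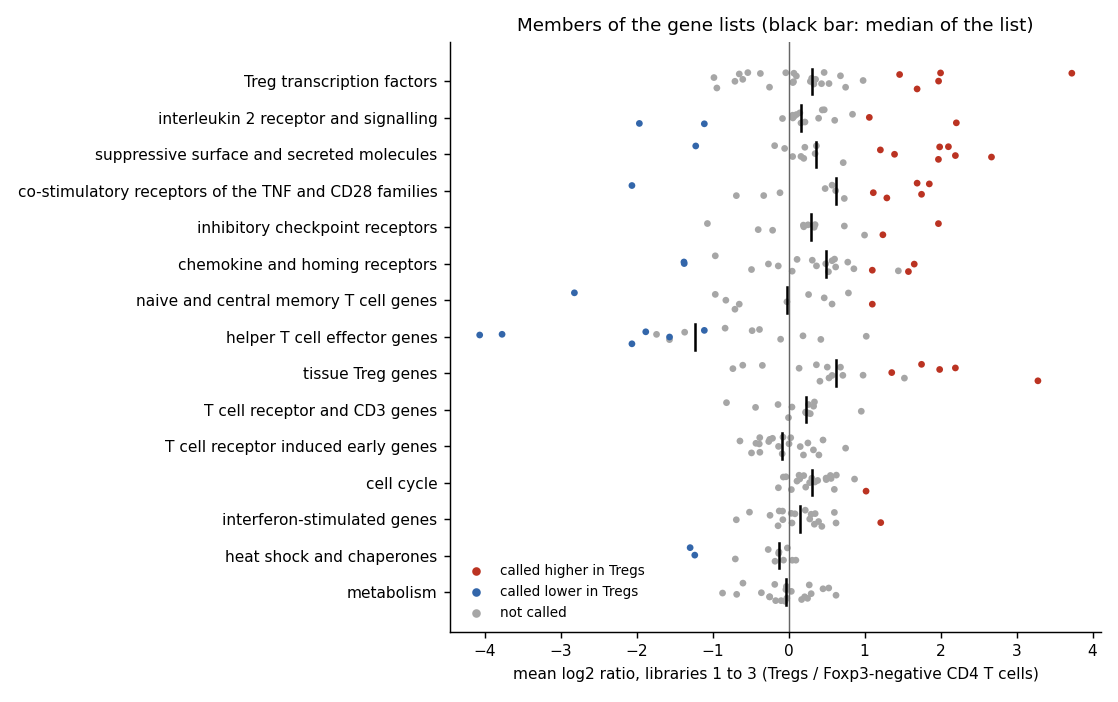
Mean log2 ratio over libraries 1 to 3 for each tested member of the 15 gene lists, without the genes of the selection rule; red and blue points were called higher or lower in Tregs, grey ones were not called, and the black bar is the list's median. The helper T cell effector list lies lowest, at -1.24, and the tissue Treg list highest, at 0.63.

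None of 13 T cell receptor and CD3 genes, 21 genes induced early by the receptor or 22 metabolic genes was called. Cell cycle genes had a median of 0.31, with Mki67 called (1.02), interferon-stimulated genes one of 0.15, with Cxcl10 called (1.21), and heat shock genes one of -0.13, with Hspa1a (-1.23) and Hspa1b (-1.30) lower in Tregs. Thinning to 1000 UMIs moved some of these values, and it raised the calls among all genes as well. Of 11 cell cycle genes then tested, Mki67, Birc5 and Mcm6 were higher (median 0.80). Of 16 interferon-stimulated genes Stat2, Bst2 and Rtp4 were lower (median -0.25) and none higher, so that Cxcl10 was no longer called. Hspa1a was the only heat shock gene still called. Zap70 of 13 T cell receptor genes was lower, and Fabp5 of 14 metabolic genes higher. Without cells over 1% of other UMIs, Cxcl10 and Hspa1b were called, Hspa1a was not, and Slc7a5 of 22 metabolic genes was lower.

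Among the genes called higher in Tregs were immunoglobulin constant region genes, usually products of B cells. Ighm, the heavy chain of IgM, stood at 85, 248, 47.8 and 121 CPM in the Tregs of libraries 1 to 4 and at 23.4, 15.1, 3.86 and 17.7 CPM in the other CD4 T cells, with a mean log2 ratio of 2.31. It was found in 51 of 142 Tregs and 15 of 280 others, with at most 18 UMIs in 1 Treg. Igkc, the kappa light chain, stood at 52, 83.7, 126 and 18.7 CPM against 0, 1.51, 3.09 and 0 CPM (3.01), in 24 of 142 Tregs. Neutrophils held Ighm at 9.02 CPM and Igkc at 2.15 CPM over all libraries. The 6 genes of the B and plasma cell list summed to 4.72, 10.1, 5.31 and 0 CPM in these Tregs. Of them Cd79b led at 5.48 CPM over all libraries, and Cd79a, Jchain and Mzb1 were at 0 in every Treg. Neither Ighm nor Igkc was called without the cells that held 2 or more genes of another cell type's list, again with library 3 alone, and Ighm was not called when Cd4 was asked of Tregs, also with library 3 alone.

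The last genes named by the rule are less well known in Tregs. Zc3h12d, which encodes an RNA-degrading zinc finger protein, was at 23.6, 114, 92.1 and 46.7 CPM in Tregs and at most 13.9 CPM in a library of the other class (log2 ratio 1.85). Rln3, the gene of the peptide hormone relaxin 3, was at 70.9, 60.8, 26.6 and 103 CPM against at most 5.2 CPM, and was found in 20 of 142 Tregs and 6 of 280 other cells. Both genes lost their call with a pseudocount of 50 CPM and after thinning to 1000 UMIs. Neither was called without cells with 2 or more genes of another cell type's list, which left library 3 alone. Rln3 was also not called with at least 2 Foxp3 UMIs or with Cd4 asked of Tregs, again with library 3 alone.

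Counted by cell, Gzmb was found in 103 of 160, Itgae in 81, Klrg1 in 65, Hopx in 57, Areg in 56 and Itgb8 in 40. Of the 65 Tregs with Klrg1, 53 also held Gzmb (81.5%), 35 held Itgae and 22 held Areg. Deeper cells show more genes of any kind, and a cell without a UMI of a gene may still express it, so that these shares and overlaps are a description. Gzma, another granzyme, was found in few cells, with 0 of 34 Tregs in library 1, 5 of 24 in library 2, 10 of 84 in library 3 and 1 of 18 in library 4. It reached 380 CPM in library 2 and 500 CPM in library 3, but 90.7% and 73.8% of its UMIs there lay in 1 cell. At least 3 of 13 genes of mitosis were seen in 4 of 34, 17 of 24, 15 of 84 and 4 of 18 Tregs of libraries 1 to 4. Library 2 stayed the highest after thinning to 1000 UMIs, when at least 2 of the genes were found in 1 of 33, 12 of 24, 10 of 82 and 1 of 18 Tregs. The Foxp3-negative CD4 T cells of libraries 1 to 4 then stood at 4 of 37, 7 of 47, 8 of 194 and 9 of 111. After thinning the share was thus higher in the Tregs of libraries 2 and 3 and lower in those of libraries 1 and 4, which rest on 1 Treg each. With all UMIs and at least 3 genes, the Foxp3-negative CD4 T cells stood at 5 of 37, 10 of 47, 18 of 196 and 24 of 111. Tregs were then again higher in libraries 2 and 3. Libraries 1 (11.8% in Tregs against 13.5%) and 4 (22.2% against 21.6%) showed little difference.

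Across libraries, the widest spread among 174 list genes in the Tregs was that of the chemokine gene Ccl5, at 1261, 30.4, 37.2 and 0 CPM in libraries 1 to 4, of which 83.1% in library 1 came from 1 cell. The stress and immediate early genes Hspa1a (354, 12.7, 5.31 and 46.7 CPM), Fos (2485, 297, 158 and 812 CPM) and Jun (2461, 185, 264 and 625 CPM) were highest in library 1. The Foxp3-negative CD4 T cells showed the same order between library 1 and the others, with Fos at 2584, 405, 281 and 700 CPM and Jun at 2075, 454, 295 and 717 CPM. Klf2, a factor of quiescent T cells, at 2102, 233, 691 and 327 CPM in Tregs, and the interferon-inducible GTPase gene Iigp1, at 198, 20.3, 7.09 and 9.33 CPM, were also highest there, as they were in the Foxp3-negative CD4 T cells (1975, 202, 486 and 251 CPM of Klf2, and 157, 1.51, 25.5 and 33.3 CPM of Iigp1).

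On the other side, library 1 Tregs were below those of libraries 2 and 3 in S1pr1, the egress receptor (4.72, 60.8, 156 and 131 CPM), in the cell cycle genes Nusap1 (14.2, 253, 81.5 and 0 CPM) and Rrm2 (28.3, 337, 110 and 56.0 CPM), and in Il2ra. Among the Foxp3-negative CD4 T cells, library 1 was also the lowest for S1pr1 (56.9, 69.3, 232 and 95.7 CPM) and Il2ra (53.6, 187, 116 and 120 CPM). It was not the lowest there for Nusap1 (50.2, 87.4, 25.5 and 43.7 CPM) or Rrm2 (110, 134, 88.8 and 81.2 CPM). After thinning to 1000 UMIs, Il2ra was found in 24.2%, 54.2%, 54.9% and 27.8% of the Tregs of libraries 1 to 4, so that the difference of library 1 from libraries 2 and 3 was present at equal depth. Library and treatment cannot be told apart in these files, and whether the order follows either was not tested.

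Tregs could be set against CD8 T cells in library 1 only, with 34 Tregs and 300 cells that held Cd3d or Cd3g and Cd8a or Cd8b1 but no Foxp3 or Cd4. With a single library this is a comparison of these cells and not of conditions. Of 9305 genes, 315 were at least 2-fold higher in Tregs on the same scale (3.39%) and 457 at least 2-fold lower (4.91%). With median-of-ratios scaling, which shifted the median of all genes by -0.12, these became 219 and 596, a split of 26.9% against 40.8% higher.

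Among genes with at least 50 UMIs, those with the highest ratios on the Treg side were Tnfrsf4 (827 CPM in Tregs against 74.1 CPM in CD8 T cells), the transcription factor gene Maf (198 against 13 CPM), Rora (246 against 30.2 CPM), the gut-homing integrin gene Itgb7 (198 against 24.2 CPM), Rgs10 (269 against 40 CPM), the enkephalin precursor Penk (118 against 14.8 CPM, in 6 Tregs) and the arginine synthesis gene Ass1 (213 against 33 CPM). Klrg1 (165 against 0.351 CPM, 36 UMIs in all) and Izumo1r (161 against 3.51 CPM, 44 UMIs) had higher ratios still but fell short of that limit. Ccl24 was named by the rule as well, but all of its 30 UMIs lay in 1 Treg. After thinning to 1000 UMIs, Rora, Penk, Ass1 and Ccl24 were no longer called, while Tnfrsf4, Maf, Itgb7 and Rgs10 were. Of the markers, Ctla4 stood at 529 against 183 CPM, Ikzf2 at 543 against 158 CPM and Il2ra at 128 against 32.3 CPM, so that Ctla4 and Ikzf2 were not restricted to Tregs. Of 20 interferon-stimulated genes, 10 were higher in Tregs and none lower (median 1.01), with Cxcl10 at 1139 against 269 CPM and Ifit1 at 161 against 42.5 CPM. A single Treg held 63.5% of the Cxcl10 UMIs and 58.8% of those of Ifit1. Markers of other cell types differed in both directions. Epcam, Krt19 and Krt7 of the 6 tumour or epithelial genes were higher in these Tregs (list median 1.14), of 5 neutrophil genes S100a8 and S100a9 were higher and G0s2 lower (median 0.13), Col1a1, Col1a2 and Col3a1 of 4 fibroblast genes were lower (median -1.26), and of 8 macrophage and monocyte genes Ly6c2 was lower. Without the 3 Tregs and 21 CD8 T cells over 1% of other UMIs, 31 Tregs were left. Of the 20 interferon-stimulated genes, 15 were then higher and none lower (median 1.62). Calls among all genes also rose in both directions in this setting. The tumour list had a median of 0.05, with Epcam higher and Krt7 lower. S100a8 and S100a9 were still higher and Col3a1 still lower there. After thinning, no tumour gene was called, S100a8, S100a9 and Lyz2 were higher and G0s2 and Col3a1 lower, and 5 of 13 interferon-stimulated genes tested were higher. The part of other cells' RNA in these values was not tested further.

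Of the other lists, 4 of 8 co-stimulatory receptors (Tnfrsf4, Tnfrsf9, Tnfrsf18 and Icos) were higher and none lower, 5 of 28 Treg transcription factors were higher (Ikzf2, Ikzf4, Rora, Maf and Stat5b) and 1 lower, and 8 of 17 tissue Treg genes were higher and 3 lower. After thinning, the same 4 co-stimulatory receptors were higher, 5 of 15 transcription factors were higher (Ikzf2, Maf, Rel, Relb and Hopx) and 2 lower, and 3 of 7 tissue Treg genes were higher and 1 lower (median 0.38, against 0.81 before thinning). Of 11 helper effector genes, 6 were lower and 1 higher (median -1.16, or -0.83 with the 2 genes at 0 set to their bound). Of 21 cell cycle genes, 5 were lower and none higher (median -0.16). Of 15 suppressive molecules, 5 were higher and 3 lower (median 0.08). After thinning, 5 of 8 helper effector genes were lower and 2 higher, and 4 of 8 cell cycle genes lower and none higher. Of 10 suppressive molecules then tested, 4 were higher and 1 lower. No count here has a second library beside it, and those after thinning do not have the share called among all genes beside them.

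The genes lowest in Tregs against CD8 T cells included several of cytotoxic granules and NK-type receptors. Gzmb was an exception among the granule genes, at 468 CPM in Tregs against 240 CPM (log2 ratio 0.94, not called, but called higher after thinning and without cells over 1% of other UMIs). Klrd1 (CD94) was at 0 in the 34 Tregs and at 371 CPM in CD8 T cells, at least 26.2-fold lower against a floor of 3 UMIs over the group. Klrk1 (NKG2D) was at least 14.8-fold lower, Klrc1 (NKG2A) at least 9.96-fold, the chemokine gene Xcl1 at least 13.1-fold, Gzmf at least 18.1-fold, Gzma at least 14.7-fold and Nrgn at least 9.51-fold. The UMIs of Gzmf and Gzma came from 28 and 14 of the 300 CD8 T cells, and without the cell richest in each the bounds were 10.1-fold for Gzmf and 9.90-fold for Gzma. Nkg7, a granule protein, was at 28.3 CPM against 1307 CPM, in 5 of 34 Tregs and 276 of 300 CD8 T cells. Of 15 checkpoint genes, 7 were lower in Tregs, with Pdcd1 at 28.3 against 347 CPM and Lag3 at 33.1 against 109 CPM, and Ctla4, Cd5 and Cd274 were higher. The median of this list was -0.53, or -0.25 with the 3 genes at 0 set to their bound. After thinning, 8 of these genes were tested, of which Ctla4 was higher and Pdcd1 and Cd200 lower.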

How the data were processed

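The authors deposited 1 matrix of whole-number UMI counts (55450 genes, 33064 barcodes) without normalization. Cell Ranger made it: the study's methods name version 3.0.2, the matrix header 6.1.2, and the submitters' processing notes 2.1.1 with mm10. The series text states 15603 cells after filtering, which the paper's supplement divides between tumours treated with PBS or TIOs+NIR. The same limits left 32133 here over all 4 libraries, so that these counts may cover unlike sets of samples. All 55450 gene identifiers were found in GENCODE vM21 (GRCm38), the source of gene coordinates. The members and gene lists were chosen with earlier results of these data known.

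CPM were computed from UMIs summed per class and library. Ratios used a pseudocount of 10 CPM; genes needed 20 UMIs. No test was made, since no label links a library to a sample; calls are by size. Named genes were the 15 highest and 10 lowest called with 50 UMIs against CD4 T cells, 8 each way against CD8 T cells, list members, and the 10 list genes of widest range across libraries, without the rule genes, mitochondrial and ribosomal genes. Neutrophils were cells with Csf3r, at least 10 UMIs of S100a8 and S100a9, and no Cd3 gene. Thinning drew 1000 UMIs per cell and left out 3 of 160 Tregs. Intervals are exact at 95% (Clopper-Pearson, Poisson). Python 3.11.15, numpy 2.4.6, scipy 1.17.1 and pandas 2.3.3 were used; the comparison was tested on simulated data. Alternatives changed the pseudocount, weighting, scaling, depth, minimum counts, selection limits and libraries. Some genes are not reported here.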

Additional observations from a re-analysis of the deposited data

How the results depend on the processing

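The number of Tregs was 160, and became 77 when Cd4 was asked of them, 41 without cells with UMIs from 2 or more genes of another cell type's list and 60 after thinning to 1000 UMIs (the last added after seeing the data). The Treg share of CD4 T cells, 29%, became 22.1% with at least 2 Foxp3 UMIs, 16.5% with Cd4 asked of all, 36.9% without cells with 2 or more other genes, 34.7% after thinning and 8.29% among all Cd3-positive Cd8-negative cells, and 26.3% to 33.6% when 1 library was left out, the highest without library 4.

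Against Foxp3-negative CD4 T cells, 112 higher and 84 lower genes became 352 and 383 with a pseudocount of 1 CPM, 26 and 15 with 50 CPM, and 201 and 221 after thinning. Settings that left only library 3 with 20 cells of each class gave 388 and 626 (at least 2 Foxp3 UMIs), 209 and 206 (without cells with 2 or more other genes) and 332 and 664 (Cd4 asked of Tregs, added after seeing the data). Averages over single cells, also added, gave 226 and 190, and summed libraries 178 lower genes. Leaving out 1 library, which asks for a shared sign in fewer libraries, gave 151 to 187 higher (187 without library 1, 171 without library 2) and 110 to 228 lower (228 without library 1, 176 without library 3). Of the 25 named genes, all were called again without any 1 library, and without cells over 1% of other UMIs (added). Without cells with 2 or more other genes 14 of 25 were called, with 30 Tregs and 58 other cells of library 3, without Klrg1, Igkc, Ighm, Itgb8, Rln3, Hopx, Tnfrsf8, Zc3h12d, Ccl1, Cd40lg and Il13. The Il13 log2 ratio was then 0.53, on at most 1 UMI in the Tregs. Ighm and Rln3 were not called with Cd4 asked of Tregs, and Rln3 was not called with at least 2 Foxp3 UMIs. After thinning 16 of 25 were called, without Itgb8, Rln3, Hopx, Ikzf4, Tnfrsf8, Zc3h12d, Ccl1, Lgals7 and Cd40lg. Of the list medians against CD4 T cells, those of chemokine and homing receptors (0.49 to -0.05), T cell receptor genes (0.23 to -0.26), interferon-stimulated genes (0.15 to -0.25) and metabolism (-0.03 to 0.07) changed sign over the genes still tested after thinning, and that of suppressive molecules became 1.82. With 50 CPM 19 of 25 were called, without Itgb8, Rln3, Hopx, Tnfrsf8, Zc3h12d and Cd40lg.

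Against CD8 T cells, 315 and 457 became 711 and 1178 with 1 CPM, 70 and 45 with 50 CPM, 208 and 285 with at least 50 UMIs, 473 and 1018 without cells over 1% of other UMIs and 710 and 1079 by single cells (both added), with 859 lower at 2 Cd3 UMIs. Ccl24 reversed to -0.74 after thinning and -0.37 without cells over 1% of other UMIs, which left out its 1 Treg. The comparison could not be fitted with at least 2 Foxp3 UMIs, with Cd4 asked of Tregs or without cells with 2 or more other genes, for want of cells in library 1, and no library could be left out. The cause of the other shifts was not tested. The ratios against CD4 T cells pair both classes within a library. No test was made over libraries, which are not known to be replicates of a group. The gene list counts without cells over 1% of other UMIs or after thinning, and the folds without the richest cell, were also chosen after seeing the data.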
